A study of Drosophila melanogaster with 8 samples.

Results

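The cytochrome P450 genes of Drosophila melanogaster were followed in the heads of adult males fed 2 drugs in sequence. Members were all genes on the array whose annotated symbol is Cyp with a family number, a subfamily letter or letters and a gene number, which leaves out the cyclophilins. This gave 70 genes of 6793 named genes on the array, from 17 CYP families and 4 clans, the groups of families that share an ancestor. Cyp12d1-d, whose symbol carries a copy suffix, was kept, and 2 pseudogenes of the Cyp6 family were left out. The CYP3 clan had 31 members, the CYP4 clan 29, the mitochondrial clan 7 and the CYP2 clan 3. All 70 symbols matched a gene of the RefSeq annotation.

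P450 enzymes are haem proteins that insert an oxygen atom into small lipophilic molecules. In insects the CYP3 and CYP4 clans hold most of the genes known for clearing drugs, plant toxins and insecticides, and Cyp4 enzymes also act on fatty acids and hydrocarbons. The CYP2 and mitochondrial clans hold the enzymes of ecdysteroid hormone synthesis, but the mitochondrial Cyp12 family has also been tied to insecticide resistance. Microsomal P450s take electrons from cytochrome P450 reductase and cytochrome b5, and mitochondrial ones from a ferredoxin. In the fly head, P450 transcripts are found in fat body, glia, oenocytes, epidermis and sensory organs.

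Unmated Oregon-R wild-type males, 3 to 4 days old, received food with 8 mg/ml pentylenetetrazole (PTZ), a convulsant that blocks GABA-A receptors, for 7 days and then 16 mg/ml gabapentin (GBP), an anticonvulsant, for 3 days. The day 10 group gave heads at that point, and the day 14 group after 4 more days on normal food. Control males of the same stock stayed on normal food throughout, in vials of 30 flies as for the treated males. Each of 4 arrays per day set RNA from a pool of treated heads against RNA from its parallel control pool, so each value is a log2 ratio of treated over control within 1 array. By the titles every treated pool received both drugs, and the parts of PTZ and GBP cannot be told apart. For 3 of the 4 day 14 arrays (replicates 1 to 3) the protocol label names ETH, an abbreviation it does not explain, where GBP would stand. The arrays were grouped by their titles, and only replicate 4 of day 14 has GBP in both places. Pooled heads hold many cell types, so fewer cells of a type and less RNA per cell cannot be told apart.

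Whether values below 0 mean less signal in treated heads is uncertain, since the reading of the ratios used here is an assumption. Treated RNA was in Cy5 on replicates 1 and 2 of each day and in Cy3 on replicates 3 and 4. Ratios were read as Cy5 over Cy3, the order in which the spot filter in the series' text names the channels, and replicates 3 and 4 were turned so that a positive value stands for more signal in treated heads. No source used here says whether the submitters had already turned them. With deposited signs, day 10 replicate 4 correlated with replicates 1 and 2 at a Pearson r of 0.38 and 0.40 across genes and features, although the dyes were exchanged, and day 10 replicate 3 correlated with them at only 0.03 and 0.03. Day 14 replicate 1 correlated with replicates 2, 3 and 4 at -0.03, -0.28 and -0.12, whereas day 14 replicate 2 correlated with the swapped replicates 3 and 4 at 0.21 and 0.22. For comparison, pairs with the same dyes correlated at 0.39 for day 10 replicates 1 and 2 and at 0.15 for day 10 replicates 3 and 4. Day 14 replicates 3 and 4 correlated at 0.42. These correlations are descriptions across genes on arrays that share print order and dyes, and genes are not independent replicates. Values with deposited signs stand beside the medians of the family and clans, the marker lists and most of the named genes. The arrays held 12929 to 19719 values at day 10 and 6628 to 14095 at day 14, and their median deposited log2 ratios ran from -0.83 to 0.29. Every array was centred on its own median, without which the overall median of tested genes and features would be -0.25 at day 10 and -0.0007 at day 14. Signal over background was not analysed here, so a blank means only that the spots did not pass the submitters' filter.

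P450 genes were unevenly covered. Between 39 and 52 members had a value on the day 10 arrays and between 20 and 41 on the day 14 arrays. With at least 3 of 4 arrays required, 43 members were tested at day 10, 25 at day 14, 20 on both days and 22 on neither. Cyp313a2 and Cyp4aa1 had no value on any array, and 14 members had values on all 8. In the Cyp4 family, 13 of 20 members were tested at day 10 and 8 at day 14, and in the Cyp6 family 12 of 18 and 6. The Cyp9 family had 3 of 6 members tested at day 10 and 2 at day 14, the Cyp12 family 3 of 6 and 2, and the Cyp313 family 3 of 6 and 1.

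**Figure D1:**
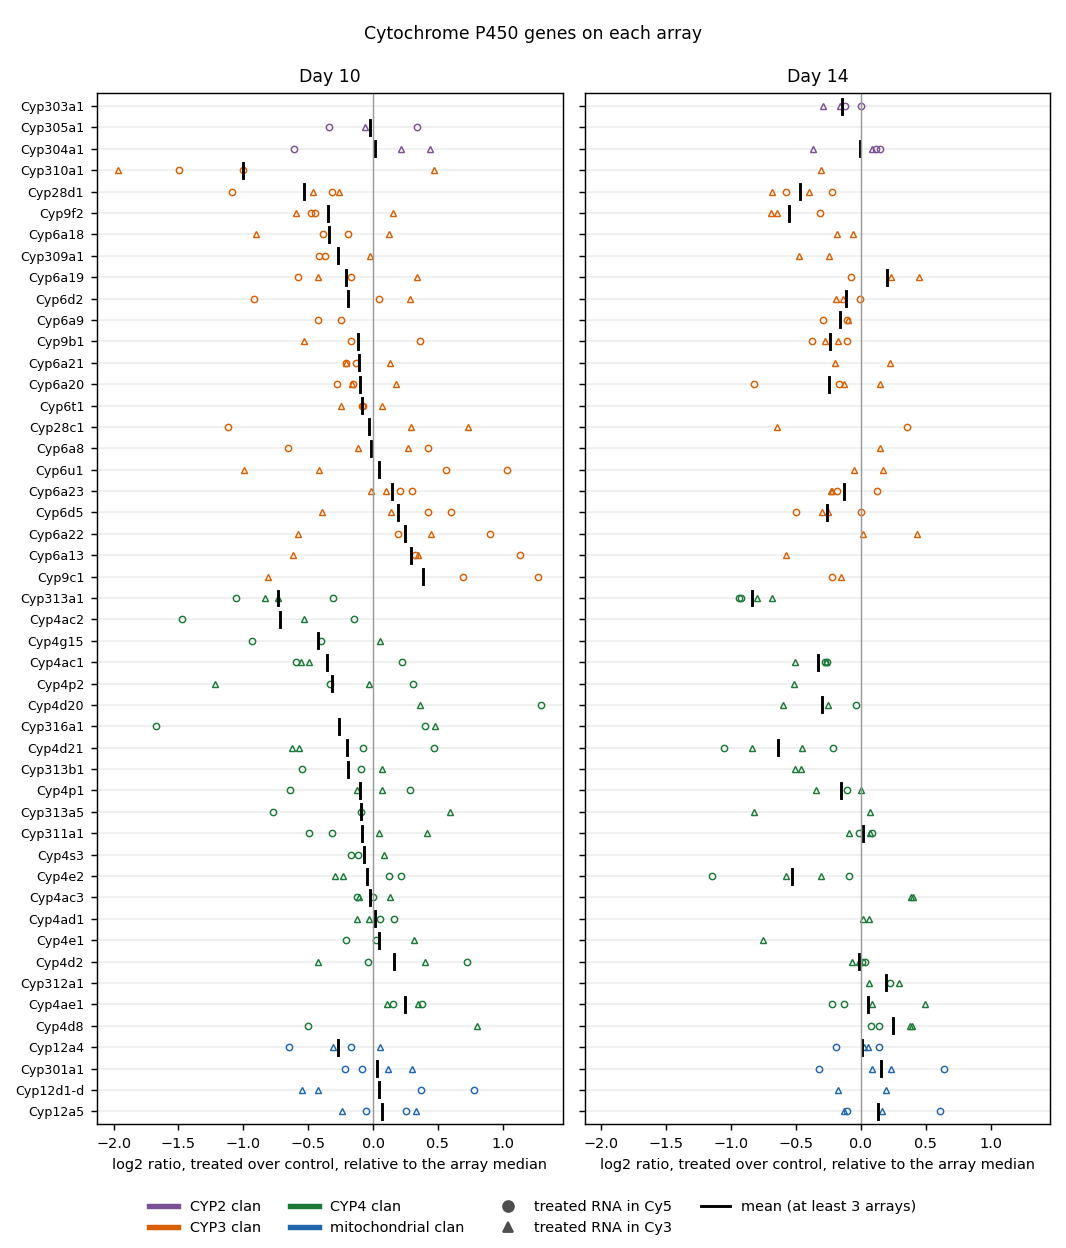
Log2 ratio of treated over control heads, relative to the array median, for the 48 P450 genes tested on either day. Each point is 1 array (circles for treated RNA in Cy5, triangles for treated RNA in Cy3), and black bars are means over at least 3 arrays. Genes are ordered within clans by their day 10 mean, or by their day 14 mean if only day 14 was tested. Day 10 points of a gene often lie on both sides of 0, whereas at day 14 the points of 11 of the 25 genes tested all lie below it.

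At day 10, the end of gabapentin feeding, no P450 gene passed a limma adjusted p of 0.05, and neither did any other gene or feature (0% called of 11312 tested). The median over the 43 members was -0.09, against 0.03 over all genes and features tested. Of the 43, 29 had a mean below 0, against a background of 44.6%. The median over members on each array was -0.23, -0.09, 0.05 and -0.03 on replicates 1 to 4, so replicate 1 lay lowest and replicate 3 above 0. Without replicate 1 the family median was -0.03 over 50 members tested, and without replicate 3 it was -0.08 over 55. With deposited signs it was -0.07, with 23 of 43 members below 0 against a background of 49.5%. Without centring, 41 of 43 members lay below 0, with whole arrays offset as given above.

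The CYP3 clan had 13 of 19 members below 0 at day 10, with a median of -0.10, against 10 of 19 and -0.07 with deposited signs. Its extremes were Cyp310a1 at the low end and Cyp9c1 at the high end. Cyp310a1 had -1.50, -1.005, 0.47 and -1.97 on replicates 1 to 4, with a mean of -1.0001 ± 0.38 (SE, n = 4; limma adjusted p = 0.991, unadjusted p = 0.0374). The other 3 arrays lay far below 0 and replicate 3 above it, and the mean was -0.25 with deposited signs. Each SE given is from the limma fit, which shares the spread of both days, while n counts the arrays of that day. It can differ from the spread of those arrays, and the SD over the day 10 arrays of Cyp310a1 was 1.05. Cyp9c1 had 1.27, 0.69 and -0.81 on replicates 1, 2 and 4, with a mean of 0.38 ± 0.38 (SE, n = 3), or 0.92 with deposited signs. On the turned arrays its sign followed the dye, and so did that of Cyp6u1, at 1.03, 0.56, -0.42 and -0.996. With deposited signs both genes lay above 0 on every measured array, and Cyp6u1 averaged 0.75. Cyp6a8, which drugs such as barbiturates and caffeine are known to induce, had -0.65, 0.43, -0.12 and 0.27, which straddles 0. Cyp6a20, which acts in support cells of olfactory sensilla and is known for its part in male aggression, averaged -0.10 ± 0.17 (SE, n = 4), or -0.11 with deposited signs.

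The CYP4 clan had 14 of 18 members below 0 at day 10, also with a median of -0.10, against 10 of 18 and -0.06 with deposited signs. Cyp313a1 is described with its day 14 values below, and Cyp4ac2 had the next lowest mean. Cyp4ac2 had -1.47, -0.14 and -0.53 on replicates 1, 2 and 4 (mean -0.72 ± 0.29, SE, n = 3; limma adjusted p = 0.991), and its mean was -0.34 without replicate 1 and -0.36 with deposited signs. Cyp4g15, known from glia of the nervous system, had -0.93, -0.40 and 0.05 on replicates 1 to 3 (mean -0.43 ± 0.24, SE, n = 3), or -0.46 with deposited signs. On the turned arrays Cyp4ae1 was the 1 member above 0 on every day 10 array, at 0.37, 0.15, 0.35 and 0.11, with a mean of 0.25 ± 0.15 (SE, n = 4), or 0.02 with deposited signs. The background for that pattern was 6.12%, so 1 of 43 members is not more than the array gives as a whole.

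In the mitochondrial clan 1 of 4 members lay below 0 at day 10, with a median of 0.04. With deposited signs 2 of 4 did, and the median turned to -0.06. The member below 0 on the turned arrays was Cyp12a4, known for lufenuron resistance when overexpressed, with -0.65, -0.17, 0.06 and -0.31 (mean -0.27 ± 0.14, SE, n = 4), or -0.14 with deposited signs. Cyp12d1-d, which is inducible by drugs and tied to insecticide resistance, had 0.37, 0.78, -0.42 and -0.55. Its sign followed the dye on the turned arrays, but with deposited signs it lay above 0 on every day 10 array and averaged 0.53. Its spots cannot be told apart from those of the near-identical copy Cyp12d1-p. Both tested CYP2 members, Cyp304a1 and Cyp305a1, averaged within 0.02 of 0, but Cyp304a1 averaged -0.42 and Cyp305a1 0.02 with deposited signs.

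At an unadjusted p under 0.05, 3 of 43 members were counted at day 10, all below 0 (Cyp313a1, Cyp28d1 and Cyp310a1), against a background of 2.55% of 11312 in that direction and 4.54% in either. None was counted above 0, against 1.99%. The 3 genes below 0 were all fixed by name with earlier results of these data known, so their count is a description. In either direction the count was 3 of 50 members without replicate 1, against 4.04% of all genes and features then tested, and 6 of 49 without replicate 2, against 4.84%. It was 9 of 55 without replicate 3, against 4.47%, and 8 of 50 without replicate 4, against 14.5%. With deposited signs 6 of 43 were counted in either direction, fewer than the background of 22.6%, and 3 of them below 0 (Cyp28c1, Cyp304a1 and Cyp311a1), against 8.99%. On the turned arrays, 4 members lay below 0 on every measured array (Cyp28d1, Cyp309a1, Cyp313a1 and Cyp4ac2), against a background of 6.83%, and with deposited signs 8 did, against 15.4%. Above 0 on every measured array were 5 members with deposited signs (Cyp12d1-d, Cyp4ad1, Cyp4e2, Cyp6u1 and Cyp9c1), against 18.3%.

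At day 14, after 4 days off the drugs, no P450 gene passed the threshold either (0% called of 6142 tested). The median over the 25 members tested was -0.14, against 0.01 over all genes and features, and 17 of 25 members had a mean below 0 against a background of 48.9%. On replicates 1 to 4 the median over members was -0.20, -0.10, -0.13 and -0.19, so all 4 arrays lay below 0 (SD 0.0471). The day 10 arrays spread more widely (SD 0.117). These medians rest on 20, 31, 41 and 40 members at day 14 and on 52, 52, 39 and 51 at day 10. The SDs thus also take in which members had a value on each array. Replicate 4, the array with GBP in both label fields, lay among the others. Without it the family median was -0.09 over 27 members, and without replicate 1 it was -0.11 over 39. With deposited signs the day 14 median was 0.01 and 11 of 25 members lay below 0, against 49.1% of all genes and features.

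By clan, CYP3 had 8 of 9 members below 0 with a median of -0.23, and CYP4 had 7 of 11 with a median of -0.15. None of the 3 mitochondrial members lay below 0 (median 0.13). Within the CYP3 clan, both tested Cyp9 genes and 5 of 6 Cyp6 genes were below 0, and Cyp6a19 alone was above, at 0.20 ± 0.21 (SE, n = 3), or -0.25 with deposited signs. Within the CYP4 clan, 6 of 8 Cyp4 genes were below 0, and Cyp4d8 had 0.08, 0.14, 0.38 and 0.40. Its mean of 0.25 ± 0.22 (SE, n = 4) was the highest of all members on the turned arrays, but with deposited signs it was -0.14. The SD over these day 14 arrays was 0.16, and the SE from the fit also takes in day 10 values of -0.50 and 0.80. Of the mitochondrial members, Cyp301a1, which is needed for the adult cuticle, averaged 0.16 ± 0.17, Cyp12a5 0.13 ± 0.17 and Cyp12a4 0.01 ± 0.14 (SE, n = 4 each), all within their error of 0. With deposited signs these were -0.0006, 0.12 and -0.04. In the CYP2 clan, Cyp303a1, known from the development of bristle sensory organs, averaged -0.14 ± 0.14, and Cyp304a1 -0.003 ± 0.19 (SE, n = 4 each), or 0.08 and 0.14 with deposited signs. These clan medians depended on the turning of the swapped arrays, since with deposited signs they were 0.01 for CYP3, 0.0048 for CYP4, -0.0006 for the mitochondrial clan and 0.11 for CYP2.

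The arrays of day 14 were then compared by sign. On every measured array of that day, 11 of 25 members lay below 0, against a background of 12.2%, and 2 lay above 0 on every one (Cyp312a1 and Cyp4d8), against 10.8%. Those below 0 were 6 of the 9 CYP3 members (Cyp28d1, Cyp6a9, Cyp6d2, Cyp6d5, Cyp9b1 and Cyp9f2) and 5 of the 11 CYP4 members (Cyp313a1, Cyp4ac1, Cyp4d20, Cyp4d21 and Cyp4e2). No mitochondrial or CYP2 member was among them. With deposited signs the count was 2 of 25 (Cyp4ae1 and Cyp6a19), against 12.9%. At an unadjusted p under 0.05, 5 of 25 members were counted below 0 (Cyp313a1, Cyp4d21, Cyp4e2, Cyp9f2 and Cyp28d1), against 1.82% of all genes and features in that direction and 2.87% in either. All of these but Cyp4e2 were fixed by name with earlier results of these data known, so the count is a description. With deposited signs 0 of 25 were counted, against 2.59% below 0 and 5.13% in either direction. In either direction the count was 3 of 39 members without day 14 replicate 1, against 1.93% of all genes and features then tested, and 4 of 36 without replicate 2, against 4.39%. It was 2 of 28 without replicate 3, against 1.18%, and 3 of 27 without replicate 4, against 1.25%.

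Cyp313a1 of the CYP4 clan had the smallest p of all members on both days. At day 10 it had -1.05, -0.31, -0.83 and -0.73 on replicates 1 to 4, and at day 14 -0.94, -0.92, -0.80 and -0.69. All 8 arrays lay below 0, and the day 14 arrays lay closer together than those of day 10. The means were -0.73 ± 0.15 at day 10, a treated over control ratio of 0.602, and -0.84 ± 0.15 at day 14, a ratio of 0.560 (SE, n = 4 each). The limma adjusted p was 0.869 at day 10 and 0.999 at day 14, and the unadjusted p 0.000604 and 0.000228. Leaving out any 1 array kept the means between -0.87 and -0.62 at day 10 and between -0.89 and -0.80 at day 14. The deposited values had opposite signs by dye, at -0.68 and 0.78 for Cy5 and Cy3 arrays at day 10 and -0.93 and 0.74 at day 14. If signs are kept as deposited, the means are therefore 0.049 and -0.094. Of the other Cyp313 genes, Cyp313a5 averaged -0.09 ± 0.31 and Cyp313b1 -0.19 ± 0.19 at day 10 (SE, n = 3 each), or -0.49 and -0.24 with deposited signs, and neither was tested at day 14. Without the Cyp313 genes, the family median was -0.08 at day 10 and -0.14 at day 14.

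Cyp28d1 of the CYP3 clan, which lies in a region linked to nicotine resistance, was the other member below 0 on all 8 arrays. It had -1.08, -0.31, -0.26 and -0.46 at day 10, and -0.58, -0.22, -0.40 and -0.69 at day 14. The means were -0.53 ± 0.16 and -0.47 ± 0.16 (SE, n = 4 each; limma adjusted p = 0.991 and 0.999). Without day 10 replicate 1, the lowest array, the day 10 mean was -0.35. Deposited signs gave means of -0.17 and 0.07. Of the 14 members with values on all 8 arrays, these 2 were below 0 throughout, against a background of 1.76% of 2217, and none was above 0 throughout, against 1.04%. Under deposited signs none of the 14 kept 1 sign throughout, against 1.53% below 0 and 1.49% above. These 2 members were known from earlier results of these data, so their values are a description.

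Cyp9f2, also of the CYP3 clan, had -0.48, -0.45, 0.15 and -0.60 at day 10, and -0.32, -0.65 and -0.69 on replicates 2 to 4 of day 14. The means were -0.34 ± 0.16 (SE, n = 4) and -0.55 ± 0.19 (SE, n = 3; limma adjusted p = 0.999, unadjusted p = 0.0175). Only day 10 replicate 3 lay above 0. Deposited signs gave -0.12 and 0.34. Cyp4ac1 of the CYP4 clan had 0.22, -0.59, -0.56 and -0.50 at day 10, and -0.26, -0.27, -0.51 and -0.27 at day 14. Day 10 replicate 1 alone lay above 0, and the means were -0.36 ± 0.16 and -0.33 ± 0.16 (SE, n = 4 each), or 0.17 and 0.06 with deposited signs. Without that array the day 10 mean was -0.55.

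Cyp4d21, also named sxe1, is a male-enriched gene of the head fat body known for its part in male courtship. It had -0.08, 0.47, -0.57 and -0.63 at day 10, and -0.22, -1.06, -0.84 and -0.45 at day 14. Day 10 arrays lay on both sides of 0 and all day 14 arrays below it. The means were -0.20 ± 0.21 and -0.64 ± 0.21 (SE, n = 4 each; limma adjusted p = 0.991 and 0.999, unadjusted p = 0.365 and 0.0131). With deposited signs they were 0.40 and 0.0048. The day 10 mean was -0.42 without replicate 2, -0.08 without replicate 3 and -0.06 without replicate 4. Cyp4e2 had 0.22, 0.12, -0.24 and -0.30 at day 10, and -1.15, -0.09, -0.58 and -0.30 at day 14. On the turned arrays its day 10 sign followed the dye, but with deposited signs the gene lay above 0 on every day 10 array. Its means were -0.05 ± 0.18 and -0.53 ± 0.18 (SE, n = 4 each), or 0.22 and -0.09 with deposited signs. Without day 14 replicate 1, its lowest array, the day 14 mean was -0.33 and the difference between days -0.28.

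**Figure D2:**
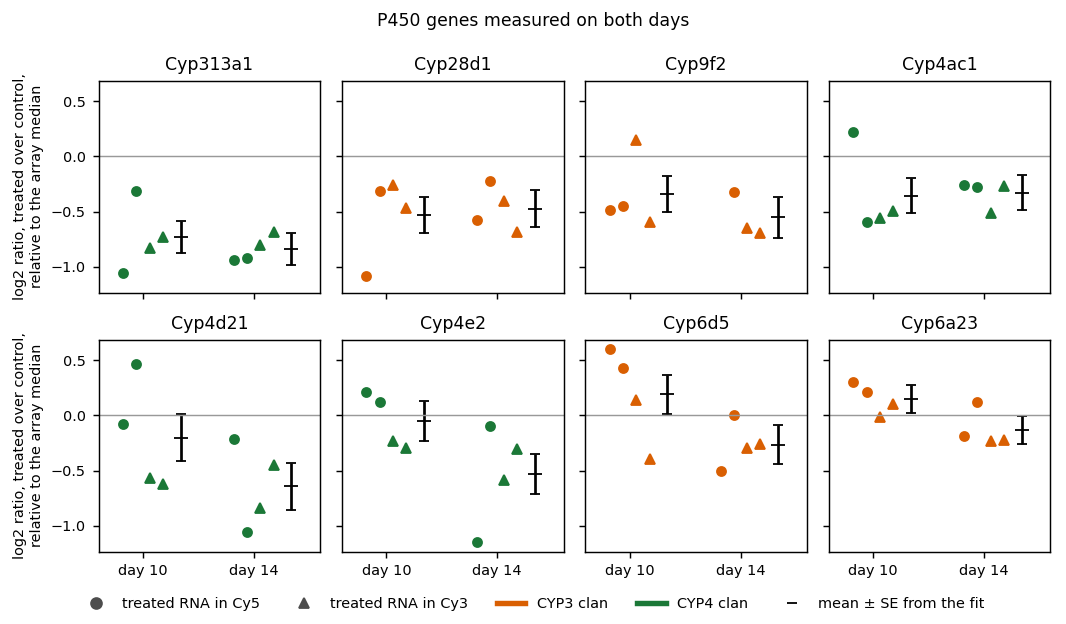
Log2 ratio of treated over control heads, relative to the array median, of 8 P450 genes on the arrays of day 10 and day 14, replicates 1 to 4 from left to right within a day. Circles have treated RNA in Cy5 and triangles in Cy3, and bars show the mean ± SE from limma. Cyp313a1 and Cyp28d1 lie below 0 on all 8 arrays, and the day 14 means of the 4 genes in the lower row lie below their day 10 means by 0.28 to 0.48.

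The day 14 minus day 10 difference was tested for 20 members, and none passed the threshold (0% called of 5187). None had an unadjusted p under 0.05 either, against a background of 1.39%. The median difference over the 20 was -0.07, against -0.01 over all genes and features, and 12 of 20 were below 0 against 51.2%. With deposited signs 11 of 20 were, against 49.9%. It was 0.22 with arrays not centred, where the median of all genes and features was itself 0.27. Cyp4e2 and Cyp6d5 had the smallest unadjusted p. Their differences were -0.48 ± 0.26 and -0.46 ± 0.25 (SE from limma), with an adjusted p of 1.00 for both. Both were -0.31 with deposited signs.

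Cyp6d5 of the CYP3 clan had 0.60, 0.43, 0.14 and -0.40 at day 10, and -0.50, -0.0005, -0.30 and -0.26 at day 14. All day 14 arrays lay below 0, replicate 2 only just, and 3 of the 4 day 10 arrays above it, with means of 0.19 ± 0.18 and -0.26 ± 0.18 (SE, n = 4 each), or 0.32 and 0.01 with deposited signs. The day 10 mean was 0.06 without replicate 1, 0.11 without replicate 2 and 0.39 without replicate 4. Cyp6a23 had 0.30, 0.21, -0.02 and 0.10 at day 10, and -0.18, 0.12, -0.23 and -0.22 at day 14. Its means were 0.15 ± 0.13 and -0.13 ± 0.13 (SE, n = 4 each), and its difference -0.28 ± 0.18. With deposited signs the means were 0.11 and 0.10 and the difference -0.010. The day 10 mean was 0.10 without replicate 1, and the day 14 mean -0.21 without replicate 2. The largest difference in the other direction was that of Cyp6a19, at 0.41 ± 0.27 on the turned arrays, but it was -0.09 with deposited signs, where Cyp304a1 had the largest, at 0.56. Of the 20 members tested on both days, 10 had a mean below 0 on both, against 25.3% of all genes and features, 3 above 0 on both, against 33.2%, and 4 above 0 at day 10 and below it at day 14, against 21.9%. With deposited signs 4 of 20 were below 0 on both, against 30.8%, and 6 above 0 on both, against 29%.

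Most members were represented by more than 1 spotted clone, each printed as a pair of neighbouring spots: 19 genes had 1 clone, 40 had 2 and 11 had 3. Clones of a gene often disagreed. In 102 cases a gene had values from over 1 clone on the same array, and in 41 of them (40.2%) the clones had opposite signs. The same share over other genes was not analysed here, so it cannot be called a trait of P450 genes. The median range between clones was 0.38, against a median difference of 0.26 between the paired spots of 1 clone. Related P450 genes share sequence, so a cDNA clone can also bind transcripts of its relatives, and single-gene values are uncertain to that extent.

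The named members differed in how far their values rested on 1 clone. Cyp313a1 had a single clone, whose paired spots differed by 0.09 in the median and by at most 0.23. In Cyp28d1, clone 3 alone was measured on all 8 arrays, and it lay below 0 on each, from -0.80 to -0.22, with a day 10 mean of -0.41. Clone 2 of Cyp28d1 had -2.52 on day 10 replicate 1 and carries most of the low value of the gene there. In Cyp4ac1, clone 2 was below 0 on all 8 arrays, with means of -0.62 at day 10 and -0.25 at day 14, and the value above 0 on day 10 replicate 1 came from clone 1, at 1.08. Cyp4d21 was read from clone 2 alone on all 4 day 14 arrays, and on day 10 replicate 2 from clone 1 alone.

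The low day 10 values of Cyp310a1 came from different clones on different arrays. Clone 2 had -2.36 and -3.22 on replicates 1 and 4, and clone 3 had -1.005, 0.47 and -0.71 on replicates 2 to 4. The paired spots of clone 2 differed by 3.18 on replicate 4. For Cyp9f2, clone 3 had values on day 10 replicate 4 only, where its paired spots read 1.17 and -3.62, and with clone 2 alone the day 10 mean was -0.19. Clone 2 of Cyp9f2 gave all of its day 14 values.

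**Figure D3:**
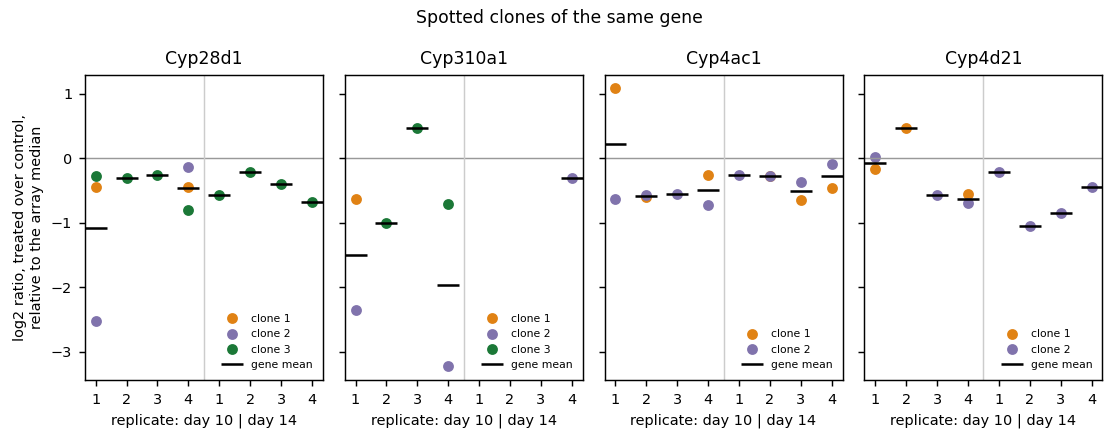
Log2 ratio relative to the array median for each spotted clone of 4 P450 genes, with day 10 replicates 1 to 4 at the left and day 14 replicates 1 to 4 at the right of each panel. Points are clones (means of up to 2 paired spots) and black bars the gene mean used in the fit. The clone with values on all 8 arrays lies below 0 throughout in Cyp28d1 and in Cyp4ac1, whereas Cyp310a1 has no clone measured on all 4 day 10 arrays.

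The deposited signs were also compared between the 2 dye orientations. A treatment effect gives opposite deposited signs on Cy5 and Cy3 arrays if values are Cy5 over Cy3 and unturned, and the same sign if swapped arrays had been turned before deposit. A dye bias of the gene on unturned arrays would give the same sign too. If swapped arrays had been turned before deposit, a dye bias would instead give opposite deposited signs. Opposite signs can thus come from treatment or from dye, depending on the reading, and which of them applies was not tested. The counts below rest on the same values as the turned means, so they are a description and do not settle the direction. At day 14, 18 of 25 members (72%) had mean deposited values of opposite sign on the 2 kinds of array, against 50.9% over all genes and features. For day 10, 17 of 43 members (39.5%) did, against 35.4%. The opposite pair with Cy5 arrays below 0 and Cy3 arrays above it was the more frequent, in 14 members at each day, against 4 of the reverse kind at day 14 and 3 at day 10. Over all genes and features these 2 kinds were nearly even, at 16.7% and 18.7% of 11312 at day 10 and 24.8% and 26.1% of 6142 at day 14. Taken alone, the Cy5 arrays gave a family median of -0.15 at day 10 (45 members) and -0.19 at day 14 (20 members), and the Cy3 arrays, turned, -0.07 (32 members) and -0.14 (35 members).

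**Figure D4:**
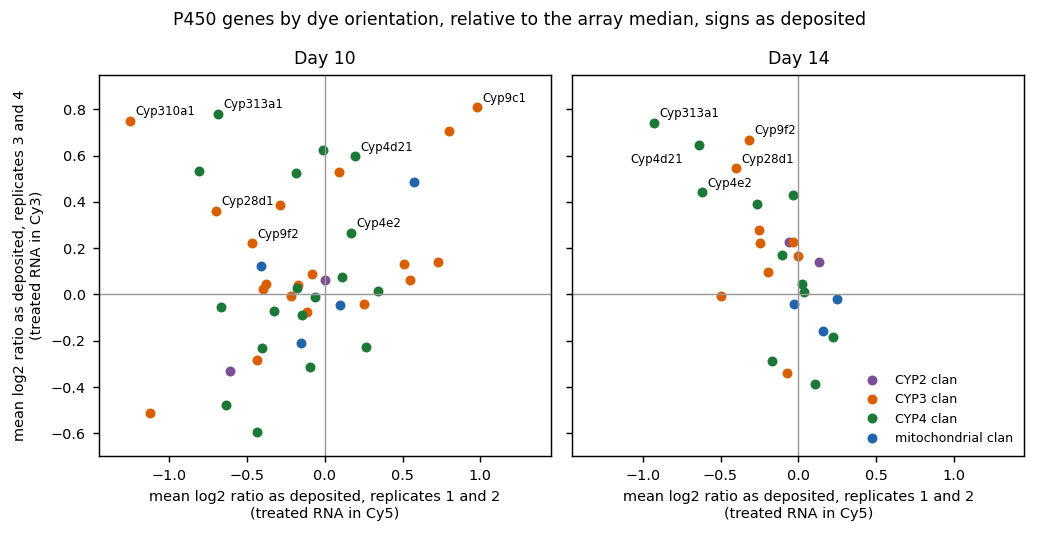
Mean deposited log2 ratio, relative to the array median and with signs as deposited, of each tested P450 gene on the arrays with treated RNA in Cy5 (horizontal axis) and in Cy3 (vertical axis), at day 10 and day 14. Genes in the upper left read lower in treated heads on both kinds of array if values are Cy5 over Cy3 and unturned, and 14 members lie there at each day. At day 14 these include Cyp313a1, Cyp4d21, Cyp4e2, Cyp9f2 and Cyp28d1.

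P450 genes lie in tandem clusters, and 37 of the 70 members had another P450 gene as a direct neighbour in the RefSeq gene order. Neighbours did not have like values throughout. In the Cyp4ac run, Cyp4ac1 and Cyp4ac2 averaged -0.36 and -0.72 at day 10 and Cyp4ac3 -0.03. With deposited signs Cyp4ac1, Cyp4ac2 and Cyp4ac3 averaged 0.17, -0.36 and -0.04. Next to Cyp4e2 (-0.05 at day 10) lay Cyp4ad1 at 0.02 and Cyp4e1 at 0.04. On the turned arrays none of that run differed from 0 by more than its error at day 10. With deposited signs Cyp4e2, Cyp4ad1 and Cyp4e1 averaged 0.22, 0.09 and -0.17. In the longest run, of 9 genes around Cyp6a20, day 10 means ran from -0.21 for Cyp6a19 to 0.24 for Cyp6a22 and straddled 0. With deposited signs Cyp6a19 averaged -0.16 and Cyp6a22 0.31. Cyp28d2, the neighbour of Cyp28d1, had a single value, -0.54 on day 14 replicate 4.

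The partners of P450 enzymes were sparsely represented among the annotated features. Of 6 genes listed as electron donors or as cytochrome b5-related, 2 were found, none was called, and both had means below 0 at day 10. Whether the first of them, Cyt-b5-r, passes electrons to P450 enzymes was not tested. Cyt-b5-r, a cytochrome b5-related gene, had -0.79, -0.22, -0.05 and -0.98 at day 10, and -0.43, 0.03, -1.03 and -0.92 at day 14. Its means were -0.51 ± 0.22 and -0.59 ± 0.22 (SE, n = 4 each), with 7 of 8 arrays below 0, and with deposited signs the means were 0.0037 and 0.39. Fdx2, a mitochondrial ferredoxin, averaged -0.03 ± 0.18 at day 10 (SE, n = 3), or -0.18 with deposited signs. Of 8 regulators of xenobiotic and ecdysone responses 6 were measured at day 10, none was called and 4 had a mean below 0 (median -0.01, or 0.13 with deposited signs). Hr96, a nuclear receptor for xenobiotics and lipids, had -0.54, -0.32 and -1.09 on replicates 2 to 4 (mean -0.65 ± 0.22, SE, n = 3; limma adjusted p = 0.991), which turned to 0.29 with deposited signs. The other ecdysteroid enzymes and partners of the list were not analysed here.

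Markers of head tissues were measured on the same arrays, and no list had a called gene. Photoreceptor genes, which define the head sample, had values for 6 of 10 listed, among them trp and inaC on all 8 arrays, and of 5 neuronal markers nSyb and Csp had values. Of 7 gut and Malpighian tubule markers 2 had values (Jon25Bi and Jon65Aiv), and of 6 accessory gland and testis markers Acp36DE and dj did. Since ratios carry no level, these values show only that spots passed the filter. Fat body is a P450-rich tissue of the head, and its markers lay below 0 too: 4 of 5 tested at day 10 (median -0.37) and 6 of 7 at day 14 (median -0.26), against 0.03 and 0.01 over all genes and features. Their summed level cannot be given from ratios, but the median of measured fat body markers on single arrays lay between -0.81 and 0.07 at day 10, and between -0.37 and 0.07 at day 14. At day 14 these fat body medians were 0.03 and 0.07 on the Cy5 arrays, and -0.37 and -0.26 on the Cy3 arrays, so their sign followed the dye. Deposited signs gave medians of 0.39 and 0.17. Glial markers had means below 0 in 4 of 4 tested at day 10 (median -0.19) and 2 of 2 at day 14 (median -0.25), with medians of -0.11 and -0.02 under deposited signs. Photoreceptor markers had means above 0 in 5 of 5 at day 10 (median 0.14) and below 0 in 5 of 5 at day 14 (median -0.36), but with deposited signs both medians were above 0, at 0.32 and 0.38. The turned photoreceptor medians of single arrays differed by dye. At day 10 they were 0.38 and 0.48 on the Cy5 arrays, and -0.17 and -0.29 on the Cy3 arrays. At day 14 they were 0.02 and 0.01 on the Cy5 arrays, and -0.59 and -0.66 on the Cy3 arrays. The part of the fat body, glial and photoreceptor markers in the P450 values was not tested.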

How the data were processed

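Heads of treated and control males were compared on 8 spotted cDNA arrays, 4 biological replicates per day per the labels. Per the series' text, arrays were quantified in GenePix Pro 6.0 and ratio-normalized in Acuity 4.0, and spots that were weak, saturated or uneven were removed. The authors deposited 1 log2 ratio per spot. The genome build and the numerator of the ratio are not given in the sources used here, and no per-sample column was left out.

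The platform annotation gave 15116 of 27648 features exactly 1 symbol, 102 several and 12430 none. Features of 1 symbol were averaged per array, and unnamed features were kept singly. Values were centred on each array's median and swapped arrays turned. A linear model with 1 mean per day was fitted over all 8 arrays in limma 3.58.1 (R 4.3.3) and tested with moderated statistics. The SE of each mean is from this fit, with 1 spread estimate shared by both days. Testing needed values on 3 or more of the 4 arrays of a day, and the Benjamini-Hochberg adjustment ran over every gene and feature tested, with a threshold of 0.05. The fit was tested on simulated data. Precision is limited by 4 arrays per day: the median standard error of members was 0.18 at day 10 and 0.17 at day 14.

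Members, lists and alternatives were chosen with earlier results of these data known. Named with array values were the 6 members with the smallest unadjusted p on each day, the 3 with the smallest for the difference between days, any with 1 sign on all measured arrays of both days, and 5 fixed by name (Cyp313a1, Cyp28d1, Cyp4d21, Cyp9f2 and Cyp310a1). Other members given with values were picked after these were seen, for their role or as extremes. Clans follow CYP family numbers. Gene order came from RefSeq Release 6 and was used for neighbours only. Sequences were not used here.

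The alternatives left arrays uncentred, centred them by print position (runs of 576 features), kept deposited signs, took each dye orientation alone, changed the filter on missing values to 2 or 4 arrays, fitted each day alone, included a replicate block or a term for the dye, weighted arrays by quality, averaged features by median, removed values beyond 6 log2 units and left out each array. Using only the best-covered clone of a gene was chosen after seeing the data.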

Additional observations from a re-analysis of the deposited data

Results flagged for a closer look

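In 49 sets of 4 arrays (members with values on all 4 arrays of a day, and the family median per array), 4 had 1 array far from the other 3 by Dixon's test, which marks about 1 in 20 sets by chance. Cyp4ac1 stood out on both days. Its day 10 replicate 1 read 0.22, where the other arrays lay between -0.59 and -0.50, and its day 14 replicate 3 read -0.51, where the others lay between -0.27 and -0.26. Cyp304a1 had -0.37 on day 14 replicate 3, against 0.09 to 0.15 on the other arrays. Cyp6a23 had 0.12 on day 14 replicate 2, against -0.23 to -0.18 on the others. The 4 values fell on 3 different arrays.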

How the results depend on the processing

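No P450 gene and no other gene or feature passed the adjusted threshold on either day or between days in any setting run. At an unadjusted p under 0.05 in either direction, the counts over all genes and features were 513, 176 and 72 for day 10, day 14 and the difference, and ran up to 2558 at day 10 with deposited signs and to 1154 and 537 at day 14 and between days with array weights. Among members these counts ran from 3 to 9 at day 10, from 0 to 10 at day 14 and from 0 to 5 between days, with the number tested changing by setting. The highest at day 10 was 9 of 55 without replicate 3, against 579 of 12953 genes and features. With array weights it was 10 of 25 at day 14, against 1154 of 6142, and 5 of 20 between days, against 537 of 5187. The family median moved by less than the spread between arrays in all but 5 cases. With arrays not centred it was -0.37 at day 10 and 0.22 for the difference (reversed), and with deposited signs 0.013 at day 14 (reversed). It was -0.26 for the difference with Cy5 arrays alone, and -0.095 at day 14 without day 14 replicate 4. Leaving out 1 array gave -0.11 to -0.03 at day 10, -0.16 to -0.095 at day 14 and -0.14 to -0.04 for the difference.

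Of 20 reversals of single members 10 came from keeping deposited signs, which gave Cyp313a1 0.049, Cyp4ac1 0.17, Cyp4d21 0.40 and Cyp4e2 0.22 at day 10, and Cyp28d1 0.073, Cyp4ac1 0.060, Cyp4d21 0.0048, Cyp6a23 0.10, Cyp6d5 0.013 and Cyp9f2 0.34 at day 14. With arrays not centred, Cyp6a23 was -0.12 and Cyp6d5 -0.074 at day 10, and the difference of Cyp6a23 was 0.0019. With 1 dye orientation at day 10, Cyp6d5 was -0.13 on Cy3 arrays, and Cyp4d21 was 0.20 and Cyp4e2 0.17 on Cy5 arrays. Array weights gave Cyp4d21 0.032 and Cyp4e2 0.033 at day 10. Without 1 array, Cyp4e2 ran from -0.14 to 0.033 at day 10. The cause of the other reversals was not tested, and sign changes under deposited signs or without centring follow from their construction.

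Replicate numbers were not taken to pair the samples: deviations of same-numbered arrays correlated at 0.03, 0.37, 0.22 and 0.19 across 2217 genes and features, so 3 of 4 pairs were over 0.1, and 5 of 8 arrays correlated best with their own number on the other day. With the replicate block the family medians were -0.09, -0.14 and -0.12 and no member was called, with 1286 and 352 genes and features at an unadjusted p under 0.05 at day 10 and day 14.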

Other observations

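Several P450 genes with values on only 2 arrays of a day lay far from 0 and were not tested. Cyp6t3 had -1.395 and -0.94 on day 10 replicates 1 and 2, and Cyp12b2 had -1.32 and -0.60 on replicates 1 and 4. Cyp4c3 had 0.75 and 1.25 on day 10 replicates 3 and 4, both with treated RNA in Cy3. Cyp12e1 had -0.21 and 1.64 on day 10 replicates 2 and 4, and Cyp308a1 had -0.72 and 0.89 on the same arrays. Cyp4e3 had -0.90 and 1.08 on day 10 replicates 1 and 3. In these 3 genes the sign followed the dye on the turned arrays, whereas with deposited signs each gene had the same sign on both arrays. Cyp6g2 (1.07, day 10 replicate 1), Cyp6a14 (0.99, day 14 replicate 2), Cyp12c1 (-0.61, day 10 replicate 3) and Cyp317a1 (0.10, day 10 replicate 3) had a value on 1 array each. These genes were chosen after their values were seen.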
